A study of Mus musculus with 6 samples.

Results

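Tropomodulins and tropomyosins are proteins of the actin filament. The genes described are the tropomodulin genes Tmod1, Tmod2 and Tmod3 and the tropomyosin genes Tpm1, Tpm2, Tpm3 and Tpm4, taken by symbol, which makes 7 of the 52459 gene symbols in the count table. They were chosen with the difference between piceatannol and control in these same libraries already known, in particular that of Tmod1, so their differences are described below without a test. RNA was sequenced from bone marrow derived macrophages of C57BL/6 mice, cultured with the myeloid growth factor GM-CSF. The groups were 3 libraries of cells that received piceatannol overnight on day 7 of culture and 3 control libraries of cells that received vehicle. Piceatannol is a plant stilbene that is known to inhibit Syk, a kinase of immune receptor signalling. The sources used here give neither its dose, nor the vehicle, nor the number of mice. Whether libraries of 1 group came from separate cultures is not stated, so the spread between them may be technical.

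Tropomyosins are coiled-coil dimers that polymerise head to tail along the groove of the actin filament and control which other proteins, such as myosin and cofilin, reach it. Each tropomyosin gene gives several isoforms through alternative promoters and splicing, in muscle and in nonmuscle cells. Tropomodulins bind tropomyosin and cap the pointed (slow-growing) end of the filament. Tmod1 is best known from red blood cells, lens and striated muscle, Tmod2 from neurons, and Tmod3 as the form found in most tissues. In macrophages, as in other nonmuscle cells, actin filaments build the cortex, protrusions and adhesion structures.

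The promoters of 2 members that were higher with piceatannol, Tmod1 and Tpm1, and of 2 that were lower, Tpm2 and Tpm4, are shown because these genes carry the differences described below. Each sequence is the 250 bases before the start site in RefSeq (GRCm38.p6), read 5′ to 3′ on the gene's own strand, and capitals mark a match to one of the motifs searched.
Tmod1, chr4:46038972-46039221, plus strand: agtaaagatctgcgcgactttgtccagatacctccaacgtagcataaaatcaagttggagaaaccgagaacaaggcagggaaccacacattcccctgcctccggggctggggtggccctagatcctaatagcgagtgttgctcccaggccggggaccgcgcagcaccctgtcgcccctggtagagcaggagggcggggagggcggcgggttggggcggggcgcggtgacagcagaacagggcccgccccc
Tpm1, chr9:67049214-67049463, minus strand: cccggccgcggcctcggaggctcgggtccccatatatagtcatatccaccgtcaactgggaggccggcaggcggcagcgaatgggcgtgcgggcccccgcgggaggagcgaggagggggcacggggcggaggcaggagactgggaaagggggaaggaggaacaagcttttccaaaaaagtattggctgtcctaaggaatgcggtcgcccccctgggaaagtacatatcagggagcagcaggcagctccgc
Tpm2, chr4:43523555-43523804, minus strand: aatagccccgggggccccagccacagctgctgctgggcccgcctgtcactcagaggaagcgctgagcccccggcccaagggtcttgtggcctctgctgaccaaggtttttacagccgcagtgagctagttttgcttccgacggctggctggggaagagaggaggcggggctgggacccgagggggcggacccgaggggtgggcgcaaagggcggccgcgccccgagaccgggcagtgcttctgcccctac
Tpm4, chr8:72135038-72135287, plus strand: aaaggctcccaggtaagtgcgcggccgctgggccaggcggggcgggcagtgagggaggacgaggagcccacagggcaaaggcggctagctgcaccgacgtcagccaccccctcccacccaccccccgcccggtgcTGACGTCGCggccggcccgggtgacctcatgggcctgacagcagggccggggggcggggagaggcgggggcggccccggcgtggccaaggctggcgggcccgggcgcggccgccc
The motifs, searched on both strands, were the hypoxia response core ACGTG, the antioxidant response motif TGACNNNGC, the AP-1 motif TGANTCA, the heat shock motif GAANNTTC, the GATA motif AGATAA and the CArG box of the serum response factor SRF. The antioxidant response and AP-1 motifs can overlap. Of these 4 promoters, Tpm4 held 1 match, TGACGTCGC, to the antioxidant response motif, which 10.2% of 32851 promoters of the same length held. The other motifs occurred in 16.6% (hypoxia response core), 6.75% (AP-1), 6.69% (heat shock), 9.99% (GATA) and 1.47% (CArG box) of those promoters. Of the Tmod2 promoters, the first held the letters CACGT, the hypoxia response core on the other strand, and the second held the AP-1 match TGAGTCA, while the first of the Tpm3 promoters held AGATAA. The share of G and C was 64.0% in Tmod1, 65.2% in Tpm1, 69.6% in Tpm2 and 78.8% in Tpm4, against a median of 52.4% over all promoters. A match is a description of these letters and does not mark a bound site, and GENCODE lists starts upstream of the RefSeq start for all 4 genes.

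All 7 genes passed the filter on low counts. Of them, 2 were higher with piceatannol (Tmod1 and Tpm1), 4 were lower (Tmod2, Tpm2, Tpm3 and Tpm4) and 1, Tmod3, did not differ beyond the spread between libraries. For the 6 that differed, the values of the groups did not overlap. In the same fit 38.8% of all 15380 tested genes were called higher and 38.3% lower, 77% in all. All 3 piceatannol values lay above the control values for 39.9% of genes and below them for 39.2%, 79% in all. Since the members were chosen on this contrast, nothing is read from their counts. Over all tested genes the median difference was 0.01 on the log2 scale.

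**Figure D1:**
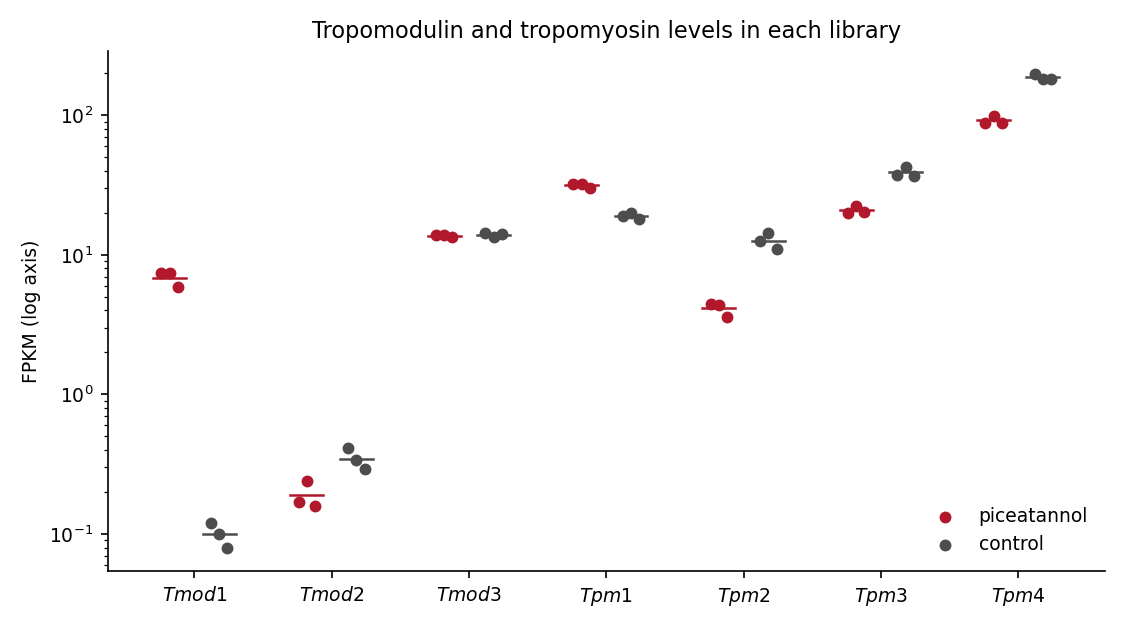
FPKM (log axis) of the 7 genes in each library; dots are libraries, short lines are group means, and piceatannol stands left of control for each gene. Tmod1 lies at 5.85 to 7.41 FPKM in piceatannol libraries, against 0.08 to 0.12 FPKM in control libraries, while Tmod3 overlaps between the groups.

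Tmod1, the tropomodulin of red cells and striated muscle (chromosome 4, 46038935 to 46116032, plus strand, GRCm38), was almost silent in control cells. It had 1250, 977 and 1147 counts in the piceatannol libraries and 24, 18 and 19 counts in the control libraries. As CPM (counts scaled to the library total), this was 29.7, 29.6 and 23.5 CPM with piceatannol and 0.454, 0.410 and 0.322 CPM in control. The third piceatannol library was the lowest of its group, and it still stood far above every control library. The log2 fold change was 6.12 ± 0.16 (SE, edgeR), which is 69.8-fold, and placed Tmod1 in position 42 from the top of the 15380 tested genes. The control level rested on 61 counts in all, so the ratio of summed counts, 69.5, had a 95% counting interval of 54.0 to 91.1 (exact binomial, counting error only). Per gene length it reached 6.88 ± 0.895 FPKM with piceatannol, against 0.10 ± 0.02 FPKM in control (SD, n = 3 each).

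The last exon of Tmod1 overlaps its neighbour Tstd2, transcribed from the other strand, over 1287 bases, or 32.6% of the exonic length of Tmod1 (chr4:46114746-46116032). The sources used here do not give the strand setting of the counting, so reads from this stretch could not be assigned to one gene with certainty. Tstd2 had 54.7, 55.9 and 54.3 CPM with piceatannol and 38.7, 37.9 and 38.0 CPM in control, and rose by 0.52 ± 0.06 on the log2 scale (SE; Benjamini-Hochberg adjusted p = 2.17e-07, quasi-likelihood test in edgeR). On the other side of Tmod1, Tdrd7, a tudor-domain gene 4173 bases away, had a log2 fold change of 0.36 (adjusted p = 0.00023, edgeR). Further out, Ccdc180 had 0.31 (adjusted p = 0.258) and the cap-binding protein gene Ncbp1 had -0.01 (adjusted p = 0.894), neither past the threshold of 0.05. The difference of Tmod1 was thus several log2 units above that of each of its 4 nearest protein-coding neighbours, a set chosen by position after the values were seen.

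Markers of red cells, in which Tmod1 is best known, were at or near 0. All 13 red cell marker genes in the table averaged under 1 CPM, and their sum was 1.79 to 2.49 CPM in piceatannol libraries and 0.491 to 0.549 CPM in control libraries. Rhag, of the red cell membrane, had no counts in any library. Only 2 of these markers passed the filter, and both were higher with piceatannol. They were the globin gene Hbb-bt, at 0.859 CPM with piceatannol and 0.247 CPM in control, and the erythropoietin receptor gene Epor, at 0.677 CPM with piceatannol and 0.0682 CPM in control. Epor, with 10 counts over the control libraries, passed the filter only through the piceatannol libraries, so the filter favoured its direction. Of 12 markers of smooth and striated muscle, 9 averaged under 1 CPM, and Myh6 and Actc1 of heart muscle had at most 3 counts in a group. Of the 6 muscle markers tested, 3 were higher and 1 was lower. Over all tested genes 38.8% were called higher and 38.3% lower. Among the higher ones Ttn, with 71 counts with piceatannol and 4 in control, also passed the filter only through the piceatannol libraries. The muscle list summed to 27.0 to 29.3 CPM with piceatannol and 18.2 to 19.9 CPM in control. Most of this was Smtn, at 21.4 CPM with piceatannol and 10.6 CPM in control. The lower marker was Cnn1 of smooth muscle, at 0.631 CPM with piceatannol and 4.51 CPM in control. Tmod1 was at 23.5 to 29.7 CPM with piceatannol, above the summed red cell markers. In control it was at 0.322 to 0.454 CPM, below them. Since Tmod1 was chosen with its difference known, nothing is read from this, and the source of its RNA was not tested.

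Tmod3, the widely expressed form and the most abundant tropomodulin here (chromosome 9, 75497707 to 75559657, minus strand), kept the same level in both groups to within the spread between libraries. It had 158, 155 and 154 CPM with piceatannol and 159, 149 and 157 CPM in control. Every piceatannol value fell inside the range of the control values. The log2 fold change was 0.01 ± 0.06 (SE, edgeR), with a 95% interval of -0.10 to 0.12, so larger changes lie outside the interval, although this does not show equality. The sign of this value was not stable: it was -0.0238 with scaling by library totals.

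Tmod2, the neuronal tropomodulin, lies 5963 bases beyond Tmod3 on the same strand (chromosome 9, 75565621 to 75611325), and was scarce. It had 87, 93 and 90 counts in piceatannol libraries and 251, 172 and 199 counts in control libraries. As CPM these were 2.07, 2.81 and 1.84 with piceatannol and 4.75, 3.92 and 3.37 in control. All piceatannol values were below all control values, with a log2 fold change of -0.86 ± 0.19 (SE, edgeR). Tmod2 and Tmod3 are neighbours with no shared exonic sequence of 50 bases. Neuronal markers were near 0 in all libraries, with 7 of 8 under 1 CPM on average, and their sum was 0.332 to 1.36 CPM with piceatannol and 3.44 to 4.58 CPM in control, most of it from the tubulin gene Tubb3, the 1 tested marker, which fell. Snap25 of the synapse had no counts.

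In the make-up of the tropomodulin genes by FPKM, which is scaled by gene length, Tmod1 took 32.9% ± 2.62 of the sum in piceatannol libraries and 0.695% ± 0.131 in control libraries (SD, n = 3 each). Tmod3 took 66.1% ± 2.71 with piceatannol and 96.9% ± 0.515 in control. The summed FPKM of the tropomodulin genes was 20.8 ± 1.11 with piceatannol and 14.4 ± 0.444 in control. The larger sum with piceatannol came from Tmod1, since Tmod3 contributed 13.8 ± 0.207 FPKM with piceatannol and 13.9 ± 0.414 FPKM in control. By raw counts, where the shorter Tmod1 weighs less, its share was 14.8% ± 1.48 with piceatannol and 0.248% ± 0.0417 in control.

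**Figure D2:**
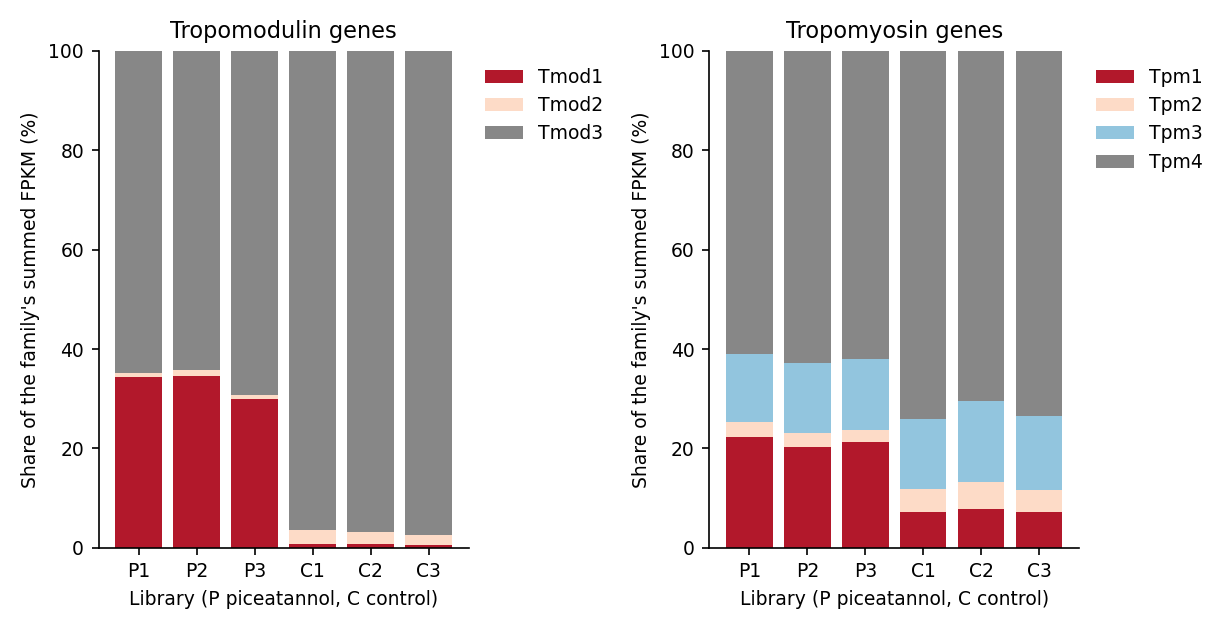
Share (%) of each gene in the summed FPKM of its family, 1 bar per library, with piceatannol libraries (P1 to P3) left of control libraries (C1 to C3). Tmod1 takes 29.9% to 34.6% of the tropomodulin sum in piceatannol libraries, against 0.554% to 0.812% in control libraries, and Tpm1 takes 20.4% to 22.2% of the tropomyosin sum, against 7.19% to 7.72% in control libraries.

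Among the tropomyosins, Tpm4 had the highest FPKM in every library and was about 2-fold lower with piceatannol. Tpm4 encodes a cytoskeletal tropomyosin (chromosome 8, 72134975 to 72153142, plus strand). It had 198, 222 and 199 CPM with piceatannol and 434, 403 and 402 CPM in control. The highest piceatannol library did not reach the lowest control library, and the log2 fold change was -1.0025 ± 0.0634 (SE, edgeR). Its mean difference, piceatannol minus control, was -207 CPM, the largest in absolute size among the 7 genes.

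Tpm3, whose nonmuscle products are found in most cell types (chromosome 3, 90072649 to 90100902, plus strand), was lower by a similar factor. It had 123, 138 and 125 CPM in the piceatannol libraries and 228, 257 and 226 CPM in the control libraries. The groups did not overlap, and the log2 fold change was -0.88 ± 0.07 (SE, edgeR). Of the 50-base stretches of Tpm3 transcripts, 23.2% also occur in the retrogene Tpm3-rs7, so reads of these could not be assigned to one gene by sequence alone. Tpm3-rs7 had 104, 96 and 114 counts with piceatannol and 239, 222 and 252 counts in control, which is small beside the summed counts of Tpm3, 15862 with piceatannol and 36714 in control.

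Tpm2, the β-tropomyosin gene known from skeletal and smooth muscle and from fibroblasts (chromosome 4, 43514711 to 43523765, minus strand), differed most among the tropomyosins. It had 13.2, 12.9 and 10.6 CPM with piceatannol and 36.4, 41.8 and 32.2 CPM in control. Every piceatannol value lay far below the lowest control value, and the log2 fold change was -1.59 ± 0.11 (SE, edgeR), or 3.01-fold lower. Of the nearest genes on either side, Car9, a carbonic anhydrase gene 981 bases away, had -0.92 ± 0.12 (SE; adjusted p = 5.70e-07, edgeR), and the talin gene Tln1 had -0.05 (adjusted p = 0.481, edgeR).

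Tpm1, the α-tropomyosin gene (chromosome 9, 67022590 to 67049406, minus strand), went the other way. It had 213, 212 and 200 CPM with piceatannol and 124, 130 and 117 CPM in control. The groups were far apart and tight, with a coefficient of variation of 3.33% in piceatannol libraries and 5.30% in control libraries. The log2 fold change was 0.75 ± 0.06 (SE, edgeR), or 1.68-fold. The annotation lists 21 transcripts of Tpm1, 16 of Tpm3, 6 of Tpm2 and 2 of Tpm4, and counts per gene add these together, so a change of isoform within a gene cannot be seen here.

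**Figure D3:**
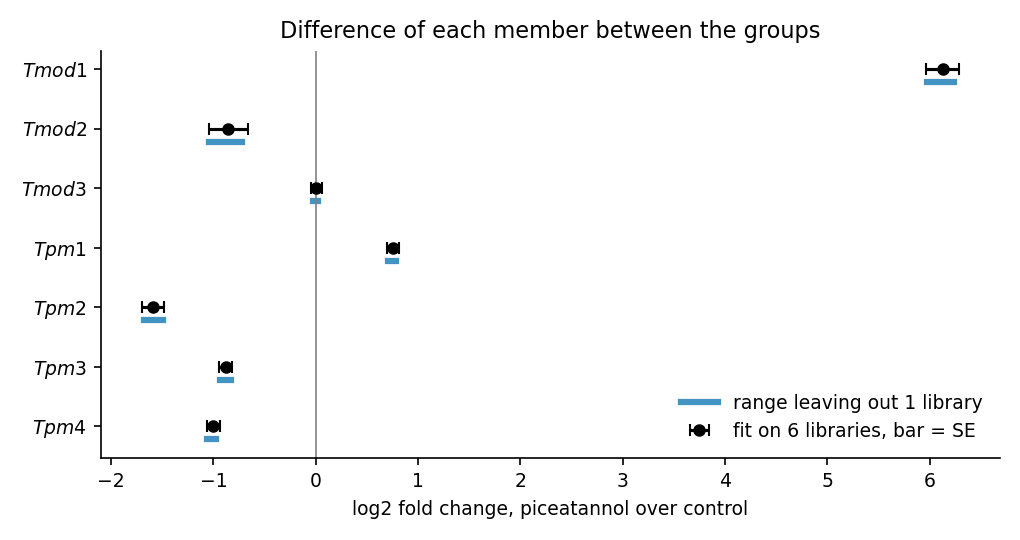
Log2 fold change of each gene, piceatannol over control, with its SE (black) and the range over fits that leave out 1 library (blue). Tmod1 stands at 6.12 and Tpm1 at 0.75, Tmod3 at 0.01, and the other genes between -1.59 and -0.86; no range apart from that of Tmod3 reaches 0.

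The sum of the tropomyosin genes was 149 ± 8.67 FPKM with piceatannol and 258 ± 8.95 FPKM in control (SD, n = 3 each). Within it the share of Tpm1 was 21.3% ± 0.923 with piceatannol and 7.39% ± 0.294 in control. The share of Tpm4 was 61.9% ± 0.90 with piceatannol and 72.6% ± 1.88 in control, and that of Tpm2 was 2.78% ± 0.288 with piceatannol and 4.89% ± 0.571 in control. The share of Tpm3 was 14.001% ± 0.246 with piceatannol and 15.1% ± 1.09 in control, a difference of -1.10 percentage points that was -0.517 without control replicate 2. By raw counts its share was 23.2% ± 0.57 with piceatannol and 29.2% ± 1.57 in control, and the groups overlapped by FPKM only. In FPKM, Tpm1 stood at 1.52 ± 0.0887 times Tpm3 in piceatannol libraries and at 0.490 ± 0.0175 times Tpm3 in control libraries, so the order of these genes was reversed between the groups. The summed tropomyosin FPKM was 7.15 ± 0.357 times the summed tropomodulin FPKM with piceatannol and 17.98 ± 0.777 times in control.

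By mean FPKM the order in piceatannol libraries was Tpm4 (92.2), Tpm1 (31.6), Tpm3 (20.8), Tmod3 (13.8), Tmod1 (6.88), Tpm2 (4.14) and Tmod2 (0.19), and no neighbours in that order overlapped. In control libraries the order was Tpm4 (188), Tpm3 (39.0), Tpm1 (19.1), Tmod3 (13.9), Tpm2 (12.7), Tmod2 (0.347) and Tmod1 (0.10). There only Tmod3 and Tpm2 overlapped, with Tmod3 at 13.46 to 14.25 FPKM and Tpm2 at 11.03 to 14.43 FPKM. These orders depend on the length used, that of all annotated exons of a gene, 6485 bases for Tpm1 and 2203 for Tpm4. By mean CPM with piceatannol, Tpm1 (208) and Tpm4 (206) were nearly level. Replicate 3 was the lowest library of its group for 5 of 7 genes with piceatannol and for 6 of 7 in control. This was not counted over all tested genes, so it is not read as a trait of these 7. No 50-base stretch of transcript is shared between any of the 7 genes.

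Most markers of fibroblasts, which are rich in tropomyosin, were lower with piceatannol, the collagen genes by the most. The 10 markers summed to 569 to 654 CPM in piceatannol libraries and to 2329 to 2586 CPM in control libraries, and 7 of 10 fell, none rose (quasi-likelihood test in edgeR, Benjamini-Hochberg adjusted p under 0.05). The collagen genes Col1a1, at 216 CPM with piceatannol and 887 CPM in control, and Col1a2, at 242 CPM with piceatannol and 1060 CPM in control, held most of that sum. Outside the collagen genes the falls were smaller, from -0.32 (Fbln1) to -1.04 (Postn) on the log2 scale. In the same edgeR fit Dcn (-0.26, adjusted p = 0.109), Lum (-0.70, adjusted p = 0.148) and Twist1 (0.56, adjusted p = 0.0541) did not pass the threshold. No defining fibroblast marker was at 0, and 9 of 10 averaged at least 1 CPM. Macrophage markers summed to 18490 to 19476 CPM with piceatannol and 23236 to 27065 CPM in control, with 3 of 12 higher and 9 lower. The endothelial list had 4 of 5 tested genes higher, led by Vwf at 368 CPM with piceatannol and 86.2 CPM in control, while Cldn5 had no counts and Tek and Emcn at most 3 in a group. Of 10 megakaryocyte and platelet markers, 7 were tested, 2 were higher and 1 lower, and the list summed to 269 to 321 CPM with piceatannol and 284 to 310 CPM in control. For comparison with these marker counts, 38.8% of all tested genes were called higher and 38.3% lower. The part of these cell types in the tropomyosin values was not tested. In bulk samples, fewer cells of a type and less RNA per cell cannot be told apart.

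The genes with which tropomodulin and tropomyosin work were taken from 8 lists of 91 genes, of which 80 were tested. Most were lower with piceatannol: 49 fell, 19 rose and 12 did not pass, with a median log2 fold change of -0.59, against 0.01 over all tested genes, of which 38.3% fell and 38.8% rose. The lists were chosen with earlier results of these data known, so their counts and medians are a description only. In the following, a gene is said to rise or fall where its adjusted p was under 0.05 in the edgeR fit over all genes (quasi-likelihood, Benjamini-Hochberg), and values are log2 fold changes unless given as CPM.

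Homologues of the tropomodulins outside the 7 genes were scarce. Tmod4, the skeletal muscle form, rose (2.29 ± 0.39, SE), with 0.831, 0.908 and 1.27 CPM in piceatannol libraries and 0.322, 0.114 and 0.169 CPM in control libraries. Lmod1, a leiomodin of smooth muscle that nucleates actin filaments, fell (-3.89 ± 0.28, SE), with 0.309, 0.151 and 0.266 CPM with piceatannol and 3.52, 3.08 and 4.50 CPM in control. The groups did not overlap for either gene. Tmod4 passed the filter through its piceatannol libraries and Lmod1 through its control libraries, so the filter favoured these directions. Lmod2 had no counts and Lmod3 had 3 counts in all, so neither was tested, and with the stricter filter none of these homologues was tested.

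Actin itself fell in all 4 tested isoforms of 6 listed, with a median of -2.35. The cytoplasmic β-actin gene Actb had 1219 ± 127 CPM with piceatannol and 3722 ± 362 CPM in control (-1.61). The smooth muscle actin genes Acta2 (-3.30), at 24.1 ± 2.29 CPM with piceatannol and 236.8 ± 21.4 CPM in control, and Actg2 (-3.10) fell further. Actg1, the cytoplasmic γ-actin gene, had 5.51 ± 1.34 CPM with piceatannol and 7.77 ± 1.14 CPM in control (-0.50, adjusted p = 0.0112). This call was lost without control replicate 3 (-0.38, adjusted p = 0.0574) and without piceatannol replicate 1 (-0.31, adjusted p = 0.0612). Actin genes are known to have pseudogene copies, and the effect of these on the counts was not tested. Without piceatannol replicate 1, or without control replicate 2, 1 actin isoform was also called higher. Summed tropomyosin FPKM was 33.4% ± 2.75 of that of Actb with piceatannol and 18.7% ± 1.64 in control.

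At the barbed end, opposite to the one capped by tropomodulin, 9 of 13 tested genes fell and 2 rose (median -0.78), and 1 rose with the stricter filter. Gelsolin (Gsn, -1.75), which severs and caps filaments, and the twinfilin gene Twf2 (-1.28) fell most among those of sufficient level. Capg, the macrophage capping protein gene and the most abundant of the list, had 629 ± 33.8 CPM with piceatannol and 958 ± 49.1 CPM in control (-0.61). The adducin genes were split: Add1 (-0.41) and Add3 (-1.22) fell, and the scarce Add2 rose (4.72). Add2 had 93 counts with piceatannol and 4 in control, and passed the filter only through the piceatannol libraries. Eps8, of a barbed-end capper and bundler, rose (0.81). Of 16 genes for severing and disassembly, 12 fell and 2 rose (median -0.79). The coronin gene Coro1a fell to 88.4 ± 7.69 CPM with piceatannol, against 777 ± 63.6 CPM in control (-3.14), and Gmfg, of a debranching factor, by 1.28 on the log2 scale. Cap1, the most abundant, fell (-1.06), while the muscle cofilin gene Cfl2 (1.08) and the cofilin phosphatase gene Ssh1 (0.73) rose.

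Of 11 tested genes of nonmuscle myosin II and its regulators, 6 fell and 3 rose (median -0.50). The heavy chain gene Myh9 had 911 ± 89.1 CPM with piceatannol and 1410 ± 27.1 CPM in control (-0.63). The light chain gene Myl9 (-2.40) and the light chain kinase gene Mylk (-2.81) fell most. Subunits of the opposing phosphatase, Ppp1r12a (0.34) and Ppp1cb (0.26), rose, the second call being lost without piceatannol replicate 1 (0.18, adjusted p = 0.0554), and with limma on log2 FPKM with a pseudocount of 1 (0.21, adjusted p = 0.0584) or 0.1 (0.23, adjusted p = 0.0525), each time with 1 rise in the list. Of 12 tested proteins that sit on or beside tropomyosin, 7 fell and 4 rose (median -1.17), and with the stricter filter, which tests fewer genes, 4 fell and 1 rose. Tagln (-1.90) and Tagln2 (-1.60) of the transgelins and Cald1 (-1.27) of caldesmon fell, whereas Tnni3, a troponin gene, rose (0.46), with 6.96 ± 0.504 CPM with piceatannol and 5.04 ± 0.747 CPM in control.

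The spectrin skeleton, the membrane lattice in which tropomodulin caps short filaments in red cells, was split. It had 5 rises and 4 falls in 13 tested genes (median -0.14), and 2 falls with the stricter filter or on log2 FPKM with a pseudocount of 1. Ank2 (1.46), of an ankyrin, and Epb41l1 (1.12) rose, Epb41l3 (-1.15) and Epb41l2 (-0.43), of the same protein 4.1 family, fell, and the abundant spectrin gene Sptan1 rose slightly (0.26). Of the SRF and MRTF pathway, which controls many actin genes, 9 of 12 fell and 2 rose (median -1.06). Ctgf had 24.0 ± 8.81 CPM with piceatannol and 213 ± 14.7 CPM in control (-3.17), and Flna, the filamin A gene, fell by 1.16 on the log2 scale. The coactivator gene Mkl2 (1.11) and the vinculin gene Vcl (0.22) rose. Acta2, Tagln and Myl9 stand in this list and in another. The summed fibroblast markers given above, held mostly by Col1a1 and Col1a2, were lower too, and their part was not tested.

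**Figure D4:**
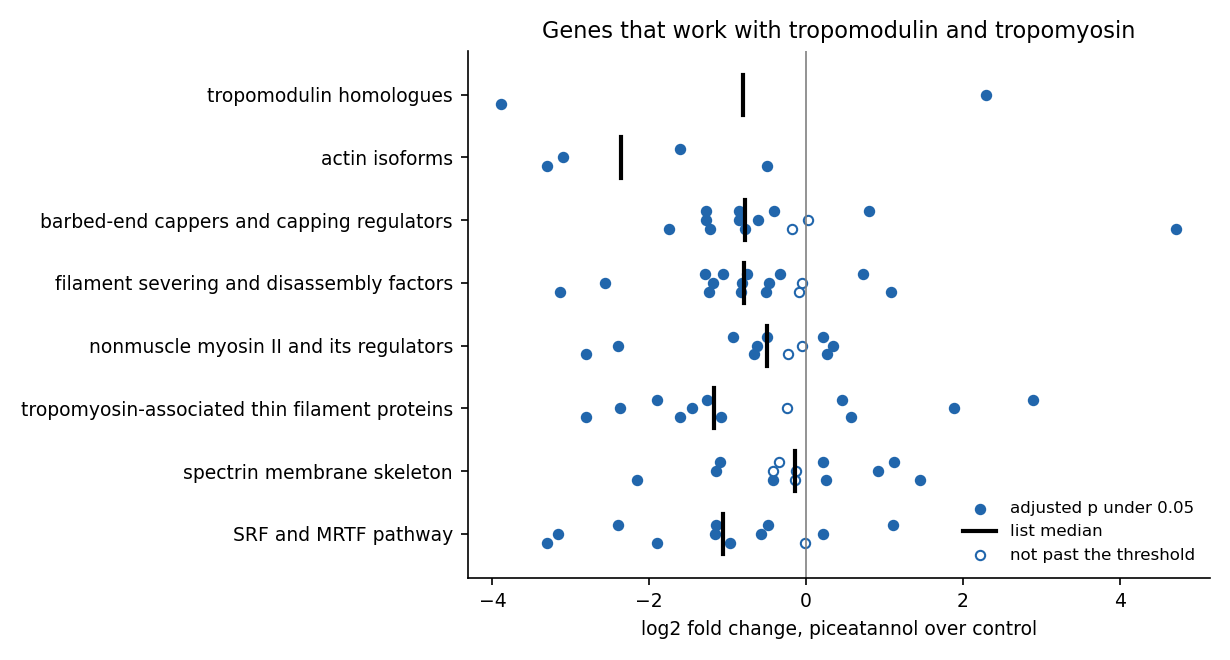
Log2 fold changes of the tested genes of the 8 lists, piceatannol over control, 1 dot per gene (filled where adjusted p was under 0.05) with the list median as a bar. The medians run from -2.35 for actin isoforms to -0.14 for the spectrin membrane skeleton, and each list except the actin isoforms has genes on both sides of 0.

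The genes whose pattern over the 6 libraries was closest to that of a member were found by the distance between log2 CPM values centred on each gene's mean. For Tmod1 these were Gramd1c (distance 0.495; 50.9 CPM with piceatannol, 0.874 CPM in control), Sema4f (0.593; 45.6 CPM with piceatannol, 0.843 CPM in control) and Cyp7a1 (0.593), which had 2.33 CPM with piceatannol and no counts in control. Cyp7a1 passed the filter only through the piceatannol libraries, and its fitted log2 fold change was 9.75, against 6.12 for Tmod1. The log2 CPM values used a prior count of 2, which lifts counts of 0 and so narrows the gap of Cyp7a1. For Tpm1 the closest genes were P4hb (0.0756), Kdelr2 (0.0819) and Pdia4 (0.0906), with log2 fold changes of 0.70 to 0.78. Tpm2 was closest to Parva (0.172), Rab39 (0.184) and S100a16 (0.188). Tpm3 was closest to Itgb2 (0.0658), Mybbp1a (0.0755) and Ndufs8 (0.0778), and Tpm4 to Mgat4a (0.0707), Peli2 (0.0710) and Spred1 (0.0742). For Tmod2 these genes were Eif5a2 (0.144), Ldoc1l (0.198) and Pkd1l2 (0.208), and for Tmod3 they were Spop (0.0485), Lrch3 (0.0501) and Cep70 (0.0554). With 2 groups this measure follows mainly the difference between them, and it says nothing of shared control.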

How the data were processed

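The authors deposited raw counts per gene symbol, as whole numbers, and FPKM values for the same 6 libraries. Per the submitters' processing notes, bcl2fastq, STAR, featureCounts and DESeq2 were used with mm10 and GRCm38; the sources used here give no versions, annotation or strand setting. The lengths implied by the deposited FPKM came within 1% of exon lengths in GENCODE M21 for the 7 genes, and positions are from that release. Library totals were 33276569 to 49283203 counts with piceatannol and 43586270 to 58697084 in control.

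Counts were filtered with filterByExpr (minimum count 10; 15380 genes kept), scaled with TMM and tested in edgeR 4.0.16 (quasi-likelihood, robust, no covariate, two-sided, Benjamini-Hochberg over all tested genes, threshold 0.05). The SE is the log2 fold change divided by the square root of F. CPM uses the scaled totals. Binomial intervals cover counting error only; the interval of a log2 fold change is normal, from the SE, and includes the spread between libraries. Counts were simulated for these 15380 genes with the same dispersion for every gene. The test recovered 82.1% of 67 genes changed 1.5-fold, 92.5% of 67 at 2-fold and 100% of 66 at 4-fold. There were 13 false calls, 6.6% of all calls. In the data 77% of genes were called and dispersion varies by gene, a condition that the simulation does not cover.

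The members and lists were chosen with earlier results of these data known. Named related genes are all tested genes of lists with 6 or fewer, and otherwise the 2 with the highest and the 2 with the lowest fold change of the called genes with mean log2 CPM of at least 2, plus the most abundant gene. Outside this rule, Add2 and Add3 are named beside Add1. Alternatives were RLE, upper-quartile and total scaling, no and a stricter filter (3 libraries at 5 CPM or more), DESeq2 1.42.0, limma 3.58.1 (voom, and log2 FPKM with pseudocounts of 1 and 0.1), a replicate block, a threshold of 0.01 for the genes called, and leaving out each library. Family shares were recomputed on raw counts. Promoter sequences are from RefSeq (GRCm38.p6), which held 6 of the 7 genes.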

Additional observations from a re-analysis of the deposited data

How the results depend on the processing

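Tmod1, Tmod2, Tpm1, Tpm2, Tpm3 and Tpm4 kept the sign of their log2 fold change under each alternative that gave a value; the stricter filter removed Tmod2. Tmod1 lay between 5.98 and 6.24 over the fits without 1 library. On log2(FPKM + pseudocount) its difference was 2.83 with a pseudocount of 1 and 5.12 with 0.1, and that of Tmod2 was -0.18 and -0.62, since a pseudocount shrinks low values. Tmod3, near 0, changed sign with library totals (-0.0238), no filter (-0.0233) and FPKM with a pseudocount of 1 (-0.016) or 0.1 (-0.017), and without 1 library lay between -0.0246 and 0.0178. On raw counts the difference in family share, piceatannol minus control, was 14.6 percentage points for Tmod1 (32.3 by FPKM), -13.3 for Tmod3 (-30.8), 22.3 for Tpm1 (13.9), -6.08 for Tpm3 (-1.10) and -13.9 for Tpm4 (-10.7), because raw counts weigh long genes more. Genes called numbered 4415 to 6489 higher and 4387 to 6255 lower over all alternatives (5960 and 5886 as reported), and related genes 14 to 20 higher and 41 to 52 lower. Whether replicate numbers pair the libraries is not stated and could not be told. Deviations of same-numbered libraries correlated weakly across genes, at 0.04, 0.07 and 0.07, but each library correlated best with its own number. Libraries of unlike number correlated at -0.0717 to 0.0174. With the replicate block, 6038 genes were called higher and 5974 lower, and Tmod1 was at 6.12. Precision at low levels is limited by depth, with 61 counts of Tmod1 in all control libraries.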
